A study of Homo sapiens with 8 samples.

Results

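The genes described here encode the nuclear subunits of the mitochondrial respiratory chain and of ATP synthase. They were chosen by symbol from the translation efficiency (TE) table, as names starting with NDUFA, NDUFB, NDUFC, NDUFS or NDUFV and a digit, UQCR, COX4 to COX8 or ATP5, and CYC1. This gave 73 of the 11244 genes of that table. Complex I had 35 of them, complex III 8, complex IV 12 and ATP synthase 18, with NDUFA4 counted in complex IV, where its product is bound. UQCR11 was not in the TE table and had 240 and 240 input counts for METTL5-WT compared with 318 and 339 for METTL5-KO. NDUFA7, UQCRHL and COX4I2 were also outside it, with at most 45 input counts in a library, and COX6A2, COX6B2, COX7A1, COX7B2, COX8C and NDUFA4L2 had 0 or 1.

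The respiratory chain passes electrons from NADH to oxygen and uses the energy released to pump protons across the inner mitochondrial membrane. Complex I takes electrons from NADH, complex III passes them from ubiquinol to cytochrome c, and complex IV hands them to oxygen. ATP synthase lets the protons flow back and makes ATP. A few hydrophobic subunits are encoded and translated inside the mitochondrion. All others are nuclear genes, many of them with very short open reading frames, whose messages are translated by cytosolic ribosomes.

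Ribosome profiling compared 2 genotypes of cells labelled HepG2, an established human liver cancer line. METTL5 was intact in METTL5-WT cells, and CRISPR-Cas9 had removed exons of METTL5 in METTL5-KO cells. METTL5 is the methyltransferase that places N6-methyladenosine on 18S ribosomal RNA. All cells received cycloheximide at 100 µg/mL for 7 minutes, and each lysate gave input RNA and, after nuclease digestion, ribosome-protected fragments (RPF). Each of the 4 groups (METTL5-WT input, METTL5-KO input, METTL5-WT RPF and METTL5-KO RPF) had 2 replicate libraries. Per the study's methods the cells of either genotype were grown from isolated clones, and which clone gave which replicate is not stated, so clone and genotype cannot be told apart. Nothing states that replicates were separate cultures, so p-values measure only the spread between these libraries, which may be technical.

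Input libraries held 10710226 to 15307256 counts, while the METTL5-WT RPF libraries held 3970779 and 4592443 recovered reads and the METTL5-KO RPF libraries 8626705 and 9255921. Members were therefore measured with the fewest reads in METTL5-WT RPF. METTL5 itself had 490 and 542 input counts in METTL5-WT against 208 and 151 in METTL5-KO, and 158 and 226 RPF reads against 41 and 21. Defining liver transcripts were absent or nearly so: the 8 hepatocyte markers ALB, AFP, APOA1, APOB, TTR, SERPINA1, FGB and TF had 0 to 9 counts in every input library, which goes against the labelled cell line. The leukocyte markers PTPRC, CD3E and CD68 had 0 to 2 counts, the endothelial PECAM1 and CDH5 0 to 9, and the neuronal RBFOX3 0 or 1 beside 25 to 37 for SNAP25. Of the fibroblast pair, COL1A1 had 429 to 937 counts and COL1A2 0 or 1.

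Across the 73 members, RPF was called higher in METTL5-KO for 39 subunits, beside 16.2% of all genes tested. The higher RPF calls fell to 22 in a fit without a variance trend (10.6% of all genes). They fell to 21 with a trend on coding length removed (14.4% of all genes). Transcript levels were called higher for 16 (11.8% of all genes) and TE for 9 (2.70%). The TE calls fell to 0 in a fit without a variance trend. Of those 9 members, 8 lay in the shortest of 5 equal groups of all genes by coding length, as did 59 of the 73. Values below are the deposited ones, which are reads divided by a size factor per library and are called scaled reads. Fold changes are METTL5-KO over METTL5-WT on the log2 scale, on counts for input and on log2(scaled reads + 1) for RPF and TE, and each is given ± its SE. TE is the RPF change beyond the input change. Calls were made where the p-value adjusted over all genes tested was under 0.05.

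In input, 17 members were called by edgeR, 16 higher and 1 lower (COX4I1), beside 22.4% of all 14054 genes tested. The higher calls were 11.8% of all genes. In RPF, limma called 40 members, 39 higher and 1 lower (ATP5PD), beside 29.3% of 11240 genes, and the higher calls were 16.2% of all genes. Limma and edgeR together called 34 members higher and 1 lower in RPF, beside 26.6% of all genes in either direction, 14.1% higher and 12.5% lower. In TE, limma called 9 members higher and 0 lower, beside 4.79% of all genes in either direction, 2.70% higher and 2.08% lower. The same 9 were called by limma and edgeR together (4.72% of all genes, 2.65% higher and 2.06% lower). At an unadjusted p-value under 0.05, limma had 22 members higher and 5 lower in TE, beside 1394 and 1143 of all 11240 genes. The edgeR test on recovered reads called 10 members higher and 2 lower (ATP5PD and ATP5F1D), beside 6.81% of all genes (3.13% higher and 3.68% lower), and DESeq2 called 11 higher and 2 lower, beside 7.46%.

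The median log2 change of the members was 0.16 in input, 0.36 in RPF and 0.21 in TE, where all genes had medians of -0.0043, 0.022 and 0.021. Both METTL5-KO libraries lay above both METTL5-WT libraries for 58 members in RPF (32.4% of all genes) and for 38 in TE (28.2% of all genes). In input this held for 41 members (31.9% of all genes). Both lay below for 4 members in RPF (29.0% of all genes), 8 in TE (25.0%) and 7 in input (31.4%). By complex, the median TE change was 0.17 for complex I, 0.30 for complex III, 0.26 for complex IV and 0.23 for ATP synthase. The matching RPF medians were 0.32, 0.40, 0.48 and 0.38, and the input medians 0.14, 0.16, 0.13 and 0.19.

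The TE calls depended on how the spread was estimated and on the libraries. Without limma's variance trend 0 members were called in TE, beside 1 gene of all 11240 (0.00890%), with 14 members higher and 3 lower at an unadjusted p-value under 0.05 (1089 and 1069 of all genes). In RPF the fit without the variance trend called 22 members, each higher, beside 20.4% of all genes in either direction, 10.6% higher and 9.86% lower. Without METTL5-KO replicate 2 only NDUFA4 stayed called in TE, where 0.0356% of all genes did. In input 2 members were called without METTL5-WT replicate 1 (8.10% of all genes), 2 without METTL5-WT replicate 2 (9.17%) and 37 without METTL5-KO replicate 1 (37.4%).

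**Figure D1:**
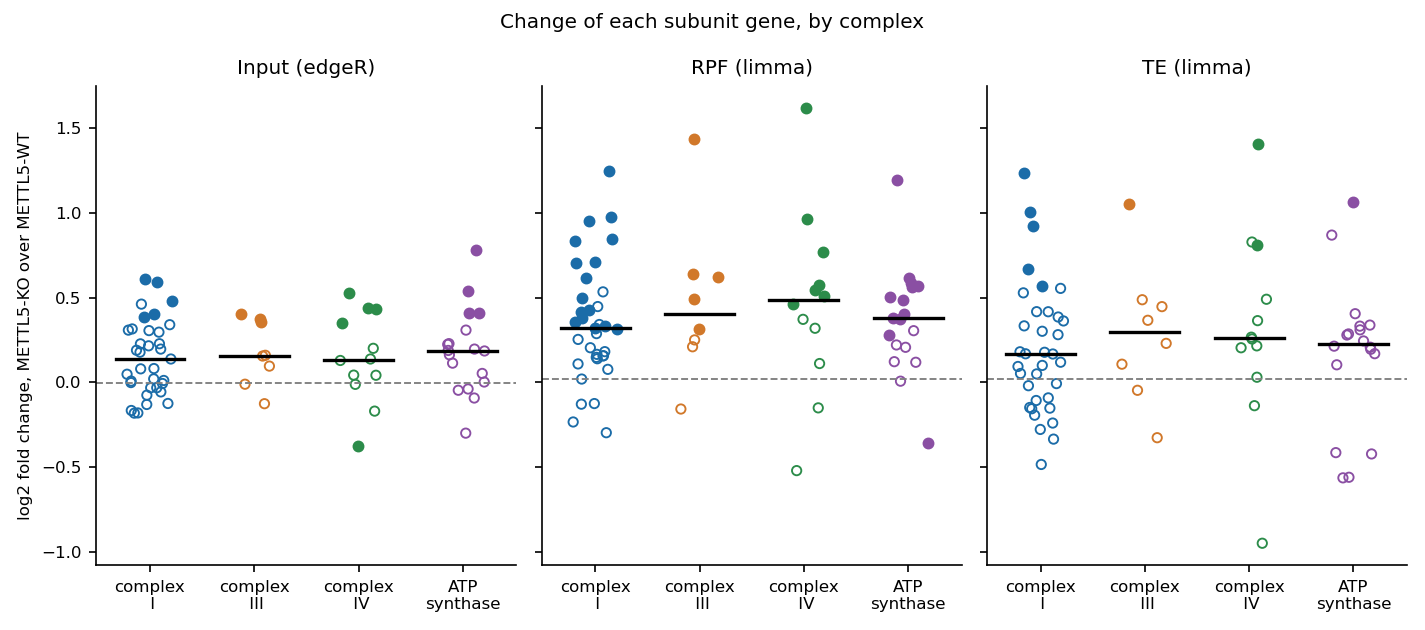
Log2 fold change (METTL5-KO over METTL5-WT, y axis) of each subunit gene in input, RPF and TE, grouped by complex on the x axis. Filled points were called and open points were not, black bars are medians over the subunits of a complex, and the dashed line is the median of all genes tested. RPF medians lie between 0.32 and 0.48, and the highest point is NDUFA4.

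The largest TE changes in complexes IV, I and III belonged to NDUFA4 (ENSG00000189043, chromosome 7 from 10931943 to 10940153, minus strand), NDUFB1 (ENSG00000183648, chromosome 14 from 92116122 to 92121917, minus strand) and UQCR10 (ENSG00000184076, chromosome 22 from 29767369 to 29770413, plus strand), with positions in hg38. Their coding sequences are short and are shown whole. Short coding regions were common among the members, with a median of 411 bases. COX7C, at 192 bases, had a TE change of 0.27 that did not pass (limma adjusted p = 0.419). The sequences shown come from the canonical transcripts of GENCODE release 44, with the start and stop codons in capitals.
NDUFA4: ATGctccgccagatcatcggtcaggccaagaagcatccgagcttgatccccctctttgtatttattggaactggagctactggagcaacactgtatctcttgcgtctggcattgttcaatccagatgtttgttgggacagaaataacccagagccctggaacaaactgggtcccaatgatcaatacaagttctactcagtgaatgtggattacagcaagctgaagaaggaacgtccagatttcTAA
NDUFB1: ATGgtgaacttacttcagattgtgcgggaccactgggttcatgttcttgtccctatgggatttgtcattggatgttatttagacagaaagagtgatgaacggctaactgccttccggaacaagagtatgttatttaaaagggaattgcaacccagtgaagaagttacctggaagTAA
UQCR10: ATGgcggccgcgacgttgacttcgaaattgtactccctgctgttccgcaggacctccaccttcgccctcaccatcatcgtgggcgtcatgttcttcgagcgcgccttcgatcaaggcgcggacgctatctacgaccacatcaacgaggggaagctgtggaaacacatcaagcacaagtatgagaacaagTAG
The 3 sequences have 246, 177 and 192 bases with the stop codon and encode 81, 58 and 63 amino acids. Their GC content was 46.3%, 41.8% and 55.7%, beside a median of 51.3% over the members.

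Complex I is built from a matrix arm, which holds the flavin and the iron-sulfur clusters, and a membrane arm that pumps protons. Of the 7 core electron-transfer subunits, 1 was called higher in RPF (NDUFS1), beside 16.2% of all genes. Their median TE change was -0.15. NDUFS1, the large iron-sulfur subunit that passes electrons on from the NADH-binding site, had 1682 and 1755 scaled RPF reads for METTL5-WT compared with 2254 and 2329 for METTL5-KO. Its scaled input reads were 2216 and 2228 against 2151 and 1850, so the groups did not overlap in either kind of library, with METTL5-KO above in RPF and below in input. Its TE change was 0.57 ± 0.14 (limma adjusted p = 0.033), a call lost when a trend on GC content was removed (adjusted p = 0.0851) and without METTL5-WT replicate 1 (0.173), METTL5-WT replicate 2 (0.122) or METTL5-KO replicate 2 (0.223). The core subunits NDUFS8, which carries iron-sulfur clusters, and NDUFS3 rose in input by 0.59 ± 0.16 and 0.39 ± 0.12 (edgeR adjusted p = 0.00987 and 0.0188). Neither was called in RPF. The scaled input reads of NDUFS8 were 1402 and 1734 against 1803 and 2949, groups that did not overlap. NDUFS8 had 3122 and 3221 scaled RPF reads for METTL5-WT compared with 3923 and 3818 for METTL5-KO, a change of 0.29 ± 0.16 (limma adjusted p = 0.197).

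Among the 8 accessory subunits of the matrix arm, 6 were called higher in RPF (NDUFA6, NDUFA12, NDUFS4, NDUFA2, NDUFA5 and NDUFS6), beside 16.2% of all genes, with a group median of 0.39. The other two, NDUFV3 and NDUFA9, had RPF changes of 0.25 and -0.13 and did not pass. NDUFA6, a LYR-motif subunit that docks the mitochondrial acyl carrier protein, had 1145 and 957 scaled RPF reads for METTL5-WT compared with 2159 and 1890 for METTL5-KO. Its scaled input reads were 933 and 879 against 973 and 872, where the groups overlapped. The TE change of NDUFA6 was 0.92 ± 0.17 (limma adjusted p = 0.00701). NDUFA12 rose by 0.84 ± 0.12 in RPF (limma adjusted p = 6.35e-05), and its TE change of 0.53 did not pass (limma adjusted p = 0.0784).

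The membrane arm gave 20 accessory subunits, of which 9 were called higher in RPF and 3 in TE (NDUFB1, NDUFB6 and NDUFC1), with a median TE change of 0.14. Higher calls were 16.2% of all genes in RPF and 2.70% in TE. NDUFB1, a small single-pass subunit of this arm, had 4908 and 5756 scaled RPF reads for METTL5-WT compared with 12211 and 13029 for METTL5-KO. Its scaled input reads were 899 and 1012 against 943 and 983. The RPF groups were far apart and the input groups overlapped. Its RPF change was 1.25 ± 0.11 and its TE change 1.23 ± 0.15 (limma adjusted p = 2.18e-07 and 0.000528). NDUFB6, another accessory subunit of the membrane arm, had 2024 and 1863 scaled RPF reads against 3466 and 3463, with input of 950 and 982 against 858 and 864. METTL5-KO lay above METTL5-WT in RPF and below it in input. Its TE change was 1.00 ± 0.14 (limma adjusted p = 0.00157). NDUFC1 had 494 and 445 scaled RPF reads against 732 and 795, at input of 532 and 541 against 549 and 550. The TE change of NDUFC1 was 0.67 ± 0.17 (limma adjusted p = 0.036), and that call was lost when any replicate was left out. It was also lost with a trend on coding length removed (0.49, limma adjusted p = 0.105).

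NDUFB7, which has the twin cysteine motif of intermembrane-space proteins, rose in both kinds of library. Its scaled RPF reads were 1414 and 1273 for METTL5-WT compared with 2412 and 2881 for METTL5-KO, and its input was 694 and 652 against 926 and 1143. The input change of 0.61 ± 0.13 (edgeR adjusted p = 0.000982) was the largest among complex I members. TE changed by 0.36, which did not pass in limma (adjusted p = 0.226) but did once a GC trend was removed (0.71, adjusted p = 0.014). NDUFA3, a small membrane-arm subunit, had scaled input reads of 153 and 178 against 202 and 263, without overlap, and rose in input by 0.48 ± 0.17 (edgeR adjusted p = 0.0386). The shortest member by exonic length, NDUFA1 (421 bases), had 6909 and 6484 scaled RPF reads against 10915 and 10942, an RPF change of 0.71 ± 0.12 (limma adjusted p = 0.0004). The longest, NDUFA10 (19359 bases), had 765 and 720 against 917 and 931, an RPF change of 0.32 ± 0.11 that limma called (adjusted p = 0.0413) and edgeR did not (adjusted p = 0.0722). The lowest TE changes of complex I were those of NDUFB8 and NDUFA11, -0.48 ± 0.31 and -0.33 ± 0.33, and neither passed (limma adjusted p = 0.369 and 0.587).

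Complex III contains cytochrome c1 (CYC1) and the Rieske iron-sulfur protein (UQCRFS1) beside core and small accessory subunits. RPF rose for 5 of its 8 members (UQCR10, UQCRQ, UQCRH, UQCRC2 and CYC1), beside 16.2% of all genes. TE rose for 1 of them, UQCR10, beside 2.70% of all genes. UQCR10, a small accessory subunit of the complex, had 872 and 919 scaled RPF reads for METTL5-WT compared with 2347 and 2501 for METTL5-KO. Its input went from 641 and 638 to 821 and 852, and neither pair of groups overlapped. Its input change was 0.38 ± 0.12 (edgeR adjusted p = 0.0228). Its RPF change was 1.44 ± 0.10 and its TE change 1.05 ± 0.15 (limma adjusted p = 2.74e-08 and 0.00157). UQCRQ, a subunit bound to cytochrome b, had 2235 and 2284 scaled input reads against 2721 and 3295 and 2340 and 2443 scaled RPF reads against 4042 and 3417. CYC1 had 1856 and 1890 scaled input reads against 2194 and 2647 and 4252 and 3885 scaled RPF reads against 4883 and 5252. Both rose in input, by 0.40 ± 0.12 and 0.36 ± 0.12 (edgeR adjusted p = 0.0176 and 0.0337), and in RPF, by 0.64 ± 0.11 and 0.32 ± 0.11 (limma adjusted p = 0.000465 and 0.0331), with no overlap of the groups. Their TE changes were 0.23 and -0.046 and did not pass. UQCRH, the hinge protein that helps cytochrome c bind, had 361 and 453 scaled RPF reads against 599 and 647. UQCRH has a near-identical relative, UQCRHL, and only uniquely mapped reads were counted, so its level is uncertain. UQCRFS1 had 1402 and 1859 scaled RPF reads against 1280 and 1639, overlapping groups, and a TE change of -0.33 ± 0.20 (limma adjusted p = 0.358).

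Complex IV members are the nuclear subunits around the mitochondrially encoded catalytic core. Of the 12, 7 rose in RPF (NDUFA4, COX6C, COX5A, COX5B, COX7A2L, COX7A2 and COX6B1) and 2 in TE (NDUFA4 and COX6C). Over all genes, 16.2% were called higher in RPF and 2.70% in TE. NDUFA4 was first assigned to complex I and is known as a subunit attached to complex IV. It had 8800 and 9354 scaled RPF reads for METTL5-WT compared with 27809 and 27850 for METTL5-KO. Its scaled input reads were 2096 and 2139 against 2412 and 2500, an input change of 0.20 ± 0.11 that did not pass (edgeR adjusted p = 0.215). Log2 TE was 2.07 and 2.13 for METTL5-WT compared with 3.53 and 3.48 for METTL5-KO. The RPF change was 1.62 ± 0.095 and the TE change 1.40 ± 0.13 (limma adjusted p = 2.08e-09 and 3.26e-05), the highest of the members in both and rank 66 of 11240 genes in TE. The edgeR test gave an adjusted p of 8.61e-07 for TE. Of the alternatives run, the fit without the variance trend was the only 1 to end its TE call (limma adjusted p = 0.133).

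COX6C, a small transmembrane subunit, had 1703 and 2114 scaled RPF reads for METTL5-WT compared with 3690 and 3691 for METTL5-KO, with input of 1774 and 1707 against 1864 and 2001. Its TE change was 0.81 ± 0.15 (limma adjusted p = 0.009), and that call was lost without METTL5-WT replicate 1 (adjusted p = 0.107) and without either METTL5-KO replicate (0.071 and 0.119). COX5A, a subunit on the matrix side, had 563 and 652 scaled RPF reads against 1043 and 1019. Its input was 305 and 318 against 409 and 218, with the METTL5-WT values between those of METTL5-KO. Its TE change of 0.83 ± 0.28 did not pass in the main fit (limma adjusted p = 0.0959) but did with a block on the lysate (limma adjusted p = 0.0283). COX6A1 had 181 and 88.2 scaled RPF reads for METTL5-WT compared with 110 and 70.2 for METTL5-KO, so the groups overlapped. Its TE change of -0.95 ± 0.41 was the lowest of the members and did not pass (limma adjusted p = 0.175).

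Input rose for COX8A, COX6B1, COX6A1 and COX5B, by 0.53, 0.44, 0.43 and 0.35 (edgeR adjusted p = 0.0117, 0.0167, 0.0477 and 0.047). Their scaled input reads were 500 and 506 against 584 and 878 for COX8A, 1273 and 1276 against 1489 and 1989 for COX6B1 and 388 and 313 against 393 and 559 for COX6A1, and METTL5-KO lay above METTL5-WT in each. COX4I1, the widely expressed form of subunit 4, was the only member called lower in input. It had 2770 and 2828 scaled input reads for METTL5-WT compared with 2002 and 2359 for METTL5-KO, a change of -0.37 ± 0.12 (edgeR adjusted p = 0.0245). The tested genes that flank COX4I1 on chromosome 16, 20 on each side, had a median input change of -0.45, so its neighbourhood was lower as well, and the part of this in its result was not tested. Flanking medians beyond 0.4 in size were also seen at ATP5F1E (-0.66, chromosome 20) and NDUFA9 (-0.49, chromosome 12). The tissue-specific forms COX4I2, COX6A2, COX6B2, COX7A1, COX7B2 and COX8C had at most 4 input counts in a library, so COX4I1, COX6A1, COX6B1, COX7A2, COX7B and COX8A were the forms measured. COX7A2L, a relative of COX7A2 that tethers complex III to complex IV, had 328 and 341 scaled RPF reads against 439 and 543.

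ATP synthase has a catalytic F1 head, a central stalk, a ring of c subunits, a peripheral stalk and several small membrane subunits. RPF rose for 11 of its 18 members and fell for ATP5PD, beside 16.2% of all genes higher and 13.1% lower. TE was called by limma for ATP5MPL alone, which was higher, beside higher calls for 2.70% of all genes. Limma and edgeR together called 8 of the 11 in RPF, without ATP5MG, ATP5PO and ATP5MC3 (edgeR adjusted p = 0.0588, 0.062 and 0.064). In TE edgeR also called ATP5MG higher (adjusted p = 0.0467), and ATP5PD and ATP5F1D lower (adjusted p = 0.0333 and 0.0283). At an unadjusted p-value under 0.05, limma had 3 of the 18 higher and 4 lower in TE, beside 1394 and 1143 of all 11240 genes. The 4 were ATP5F1B, ATP5MC1, ATP5PD and ATP5F1D, with TE changes of -0.41, -0.42, -0.56 and -0.56. The 5 small membrane subunits (ATP5MPL, ATP5MF, ATP5MG, ATP5ME and ATP5MD) were all called higher in RPF by limma, by 0.56 to 1.19. ATP5MF had 974 and 951 scaled RPF reads against 1587 and 1369, and ATP5MG 124 and 74.2 against 142 and 146. ATP5MPL, a small proteolipid of the membrane part, had 1086 and 979 scaled RPF reads for METTL5-WT compared with 2507 and 2211 for METTL5-KO. Its input was 1102 and 1052 against 1144 and 1207, a change of 0.11 that did not pass. The RPF change of ATP5MPL was 1.19 ± 0.11 and its TE change 1.06 ± 0.15 (limma adjusted p = 3.81e-07 and 0.00178).

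The F1 subunits did not move alike. ATP5F1B, the catalytic beta subunit, had 46421 and 34575 scaled RPF reads for METTL5-WT compared with 41916 and 38686 for METTL5-KO, overlapping groups with a change of 0.0074 ± 0.13 (limma adjusted p = 0.974). Its transcript rose from 12417 and 12328 to 16215 and 16914 scaled reads, by 0.41 ± 0.11 (edgeR adjusted p = 0.0118). ATP5F1A, the alpha subunit that alternates with beta in the head, rose in RPF from 9151 and 8608 to 13261 and 11680, by 0.49 ± 0.10 (limma adjusted p = 0.00189). ATP5F1D, of the central stalk, had the largest input rise of the members, 0.78 ± 0.14 (edgeR adjusted p = 0.000169), from 291 and 315 to 474 and 575 scaled reads. Its TE change was -0.56 ± 0.16, which limma did not call (adjusted p = 0.0593) and edgeR did (adjusted p = 0.0283). With the GC trend removed it was -0.19 (limma adjusted p = 0.474), at a coding GC content of 68%, and without the variance trend it did not pass (0.200). Limma called the fall with the exonic length trend removed (-0.56, adjusted p = 0.0408) and with the coding length trend removed (-0.65, 0.0284). It was also called by limma with a block on the lysate (adjusted p = 0.0412). ATP5PD, of the peripheral stalk, fell in RPF from 2217 and 2834 to 2015 and 1908 (-0.35 ± 0.12, limma adjusted p = 0.0408). That call was lost with median centring (adjusted p = 0.0518), without the variance trend (0.159) and without METTL5-WT replicate 2 (0.444) or either METTL5-KO replicate (0.130 and 0.216).

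The c subunit of the ring comes from ATP5MC1, ATP5MC2 and ATP5MC3, whose products differ in the targeting sequence that is removed on import. ATP5MC3 took 72.0% and 74.0% of their summed scaled RPF reads for METTL5-WT compared with 75.3% and 73.4% for METTL5-KO, and ATP5MC2 3.61% and 3.10% against 4.17% and 3.79%. In input ATP5MC2 took 27.5% to 32.3%. The 3 genes had the same order of RPF shares in all 4 RPF libraries. ATP5MC1 rose in input by 0.54 ± 0.12 (edgeR adjusted p = 0.00254), and its RPF change was 0.12 (limma adjusted p = 0.434). These genes share sequence with each other, so unique mapping makes their levels uncertain. The inhibitor of the enzyme, ATP5IF1, rose in RPF by 0.41 ± 0.12 (limma adjusted p = 0.0209).

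**Figure D2:**
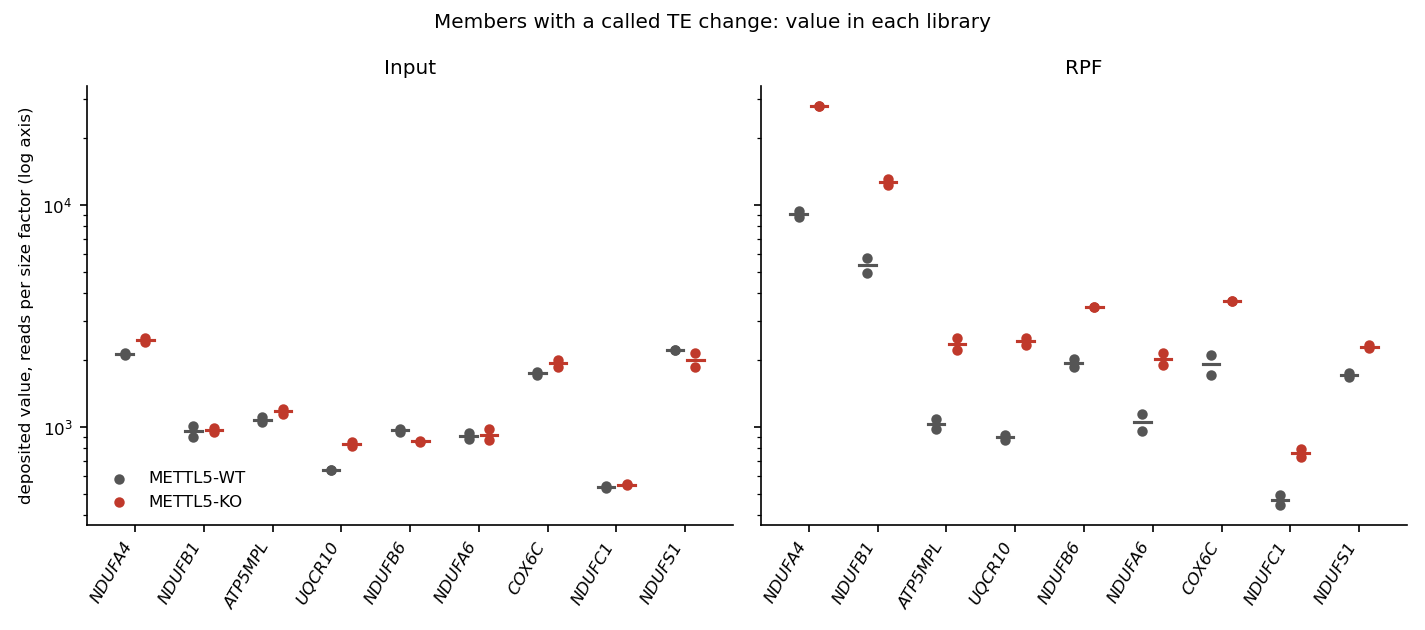
Scaled reads (y axis, log) in each input library (left) and each RPF library (right) of the 9 members called in TE, ordered by TE change. Points are libraries, short bars are means of 2, grey is METTL5-WT and red METTL5-KO. In RPF the METTL5-KO points lie above the METTL5-WT points for every gene shown, from 8800 and 9354 to 27809 and 27850 for NDUFA4 and from 1682 and 1755 to 2254 and 2329 for NDUFS1.

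Start codons were compared over 24 bases, 12 before the start codon and 12 from it on. The letters ATGGCGG, a start codon followed by GCGG, stood at the start of 17 of 72 members searched, 23.6%, and of 7.42% of 11018 genes, read on the coding strand only. The windows below are those of 3 further members with these letters and of 8 of the 9 members called in TE (COX6C is not shown), with the letters in capitals where present and the start codon in capitals otherwise.
NDUFS4: gcctgcagcaagATGGCGGcggtg
NDUFA9: ttgtgggaaaagATGGCGGctgcc
UQCRC1: tgcagctggaagATGGCGGcgtcc
NDUFA6: tgctttggcaagATGGCGGggagc
NDUFA4: tctgccgcaaacATGctccgccag
NDUFB1: gctgcagctatcATGgtgaactta
UQCR10: ctgtgaagaaacATGGCGGccgcg
ATP5MPL: tcctgcgccaagATGcttcaaagt
NDUFB6: accagcggcgacATGacggggtac
NDUFC1: gggccacgcaagATGgcgccgtcc
NDUFS1: gggagaagcaatATGttaaggata
Of the 17 members with these letters, 2 were called in TE. Their median TE change was 0.11 and that of the other members 0.26, while over all genes searched those with the letters had 0.066 and the rest 0.017. Members had short leaders, with a median of 59 bases before the start codon beside 137 for all genes, and the leader length had a Spearman correlation of 0.24 with the members' TE change (n = 73), beside -0.087 over all genes.

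Members were next set against exonic length, which is the summed length of all annotated exons of a gene and counts exons of every transcript form. Members were short, with a median of 2475 bases (421 to 19359) beside 5341 for all genes tested, and 44 of 73 lay in the shortest of 5 equal length groups of all genes. Over the members, the TE change had a Spearman correlation of -0.062 with exonic length (Pearson r -0.051, n = 73). The coefficient was -0.31 for the RPF change and -0.32 for the input change. From the shortest to the longest group the members' median TE change was 0.21, 0.16, 0.30, 0.20 and 0.22, with 44, 12, 7, 2 and 8 members. All genes in these groups had medians of 0.051, 0.022, 0.022, 0.018 and -0.00073. The long genes NDUFA10, NDUFB9 (16591 bases), NDUFA5 (13738), UQCRB (12600) and NDUFS1 (12174) had TE changes of 0.33, 0.05, 0.17, 0.37 and 0.57. With the trend on exonic length removed from each library, TE calls among members were 9 higher and 1 lower (5.79% of all genes, 3.54% higher and 2.25% lower), and the median was 0.21. By complex, the Spearman correlation between exonic length and TE change was -0.26 in complex I (n = 35), -0.19 in complex III (n = 8), 0.46 in complex IV (n = 12) and 0.36 in ATP synthase (n = 18). All points share the same 8 libraries.

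With coding length, the Spearman correlation was -0.30 for the TE change and -0.46 for the RPF change over the members, beside -0.16 and -0.22 over all genes. The members' coding regions had a median of 411 bases (156 to 2184, stop codon included) beside 1428 for all genes, and 59 of 73 were in the shortest of 5 equal groups of all genes. In that group the members' median TE change was 0.23 and that of all genes 0.13, with 5.61% of all genes called higher in TE. Of the 9 members called in TE, 8 lay in that shortest group, as did 59 of all 73 members. The other called member was NDUFS1, the longest at 2184. The shortest, ATP5F1E at 156 bases, had a TE change of 0.34 that did not pass (limma adjusted p = 0.357). With a trend on coding length removed, a step chosen after seeing the data, the members' median TE change was 0.087. TE calls were then 8 higher and 2 lower (4.34% of all genes, 2.66% higher and 1.68% lower). The NDUFC1 call was lost, and the 2 lower calls were ATP5F1D and ATP5PD. RPF calls were 24 in place of 40, of which 21 were higher (27.1% of all genes in either direction, 14.4% higher and 12.7% lower). Coding GC content had a Spearman correlation of -0.46 with the members' TE change and 0.54 with their input change, beside -0.47 and 0.31 over all genes. With a GC trend removed, TE calls were 10 higher and 1 lower (2.66% of all genes, 1.84% higher and 0.820% lower), and NDUFB7 and NDUFB11 were added while NDUFS1 was lost. The part of length and GC content in the members' changes was not tested beyond these fits.

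**Figure D3:**
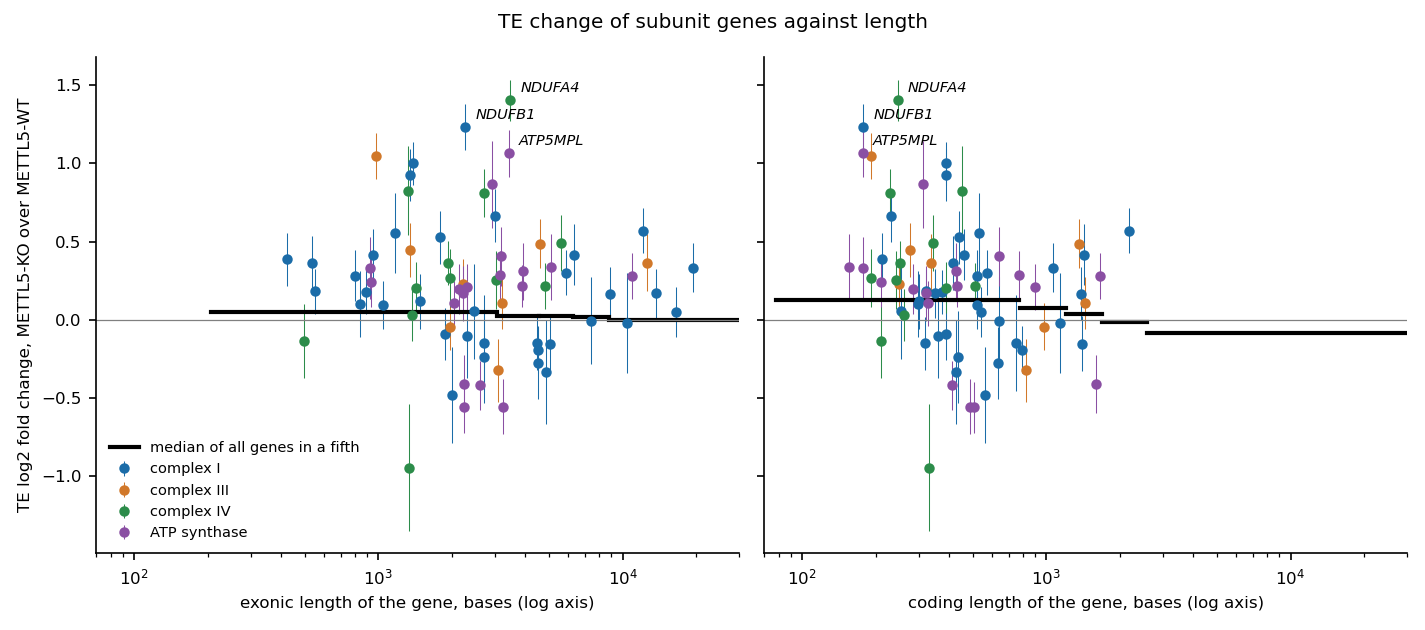
TE log2 fold change (y axis, METTL5-KO over METTL5-WT) of each subunit gene against its exonic length (left) and coding length (right), both in bases on log axes. Points are members coloured by complex with SE bars, and black steps are the medians of all genes in each of 5 equal length groups, the longest group being cut at the edge. The steps go from 0.051 to -0.00073 with exonic length and from 0.13 to -0.083 with coding length.

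Levels were compared between subunits per coding kilobase. In METTL5-WT the highest RPF level belonged to NDUFA4, at 36897 ± 1593 scaled reads per coding kilobase (SD, n = 2), followed by NDUFA1 at 31437 ± 1410, NDUFB1 at 30124 ± 3386 and ATP5F1B at 25470 ± 5268. NDUFA1 and NDUFB1 did not differ beyond their spread, nor did NDUFB1 and ATP5F1B. In METTL5-KO the order was NDUFA4 at 113128 ± 117, NDUFB1 at 71302 ± 3268, NDUFA1 at 51308 ± 89.7 and ATP5F1B at 25347 ± 1437, and here each step was larger than the spread. Of these 4, ATP5F1B was the only catalytic subunit. The lowest level was that of NDUFA9, at 125 ± 29.9 for METTL5-WT compared with 113 ± 6.73 for METTL5-KO.

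Within a complex the RPF level per coding kilobase spanned a wide range. The median over subunits was 1649 in METTL5-WT and 1904 in METTL5-KO for complex I, 2758 and 3243 for complex III, 7248 and 9732 for complex IV, and 4452 and 4843 for ATP synthase. In complex IV the highest subunit, NDUFA4, was at 90.6 times the lowest, COX6A1, in METTL5-WT and at 415 times in METTL5-KO. COX6A1 had few RPF reads and its groups overlapped, so these ratios are uncertain. In complex III the ratio of UQCRQ to UQCRC2 was 14.1 and 15.7, and in ATP synthase that of ATP5F1B to ATP5MG was 80.4 and 54.8. Input per exonic kilobase in METTL5-WT was highest for ATP5F1B, at 5528 ± 27.8 scaled reads (SD, n = 2), followed by NDUFA1 at 4617 ± 638.

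**Figure D4:**
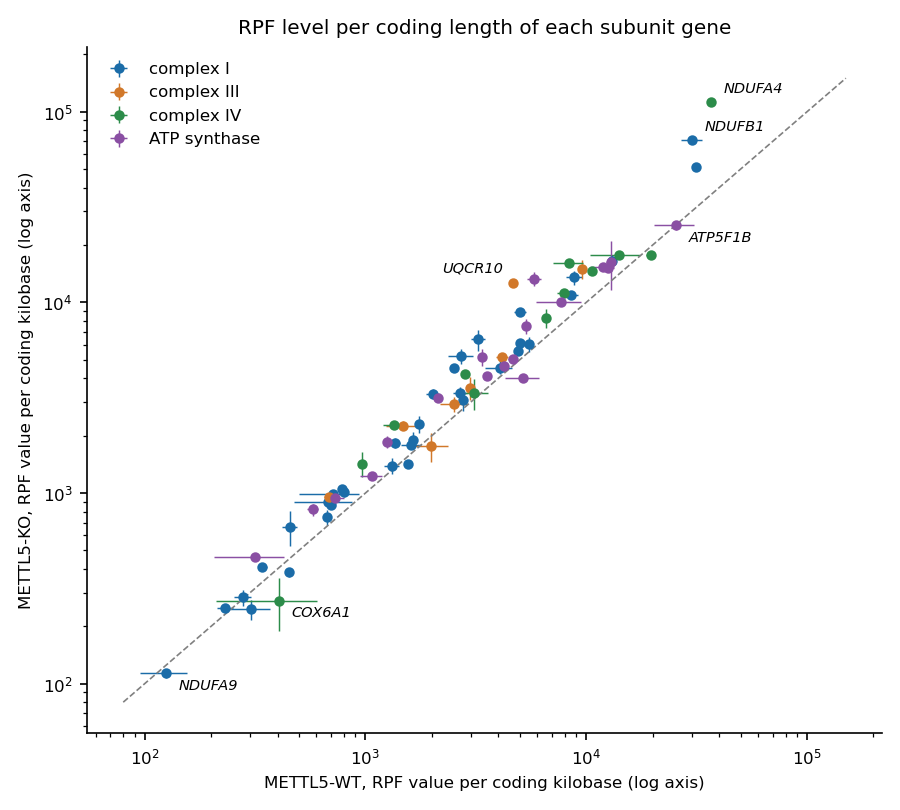
RPF level of each subunit gene in METTL5-WT (x axis) and METTL5-KO (y axis), as scaled reads per coding kilobase on log axes. Points are means of 2 libraries with SD bars, coloured by complex, and the dashed line marks equal levels. NDUFA4 and NDUFB1 are at the top and above the line, ATP5F1B is on it, and COX6A1 and NDUFA9 are below it.

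As a share of all reads of the TE table, members took 2.02% and 1.92% of the RPF reads for METTL5-WT compared with 2.41% and 2.39% for METTL5-KO. In input they took 1.26% and 1.24% against 1.39% and 1.46%. The RPF share of complex IV went from 0.348% and 0.361% to 0.544% and 0.552%, and that of complex I from 0.570% and 0.583% to 0.741% and 0.771%. The ATP synthase share was 0.942% and 0.811% against 0.929% and 0.873%, where the groups overlapped. NDUFA4 alone supplied 26.8% and 28.1% of the complex IV RPF reads for METTL5-WT compared with 49.1% and 48.8% for METTL5-KO. Without NDUFA4 the complex IV share was 0.255% and 0.260% against 0.277% and 0.283%. ATP5F1B supplied 52.3% and 46.3% of the ATP synthase RPF reads for METTL5-WT compared with 43.4% and 42.9% for METTL5-KO. A two-sided exact permutation test of 2 against 2 libraries gave p = 0.333 for the RPF share of all members and of complexes I, III and IV, and p = 1 for ATP synthase, and 0.333 is the smallest p this design allows.

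**Figure D5:**
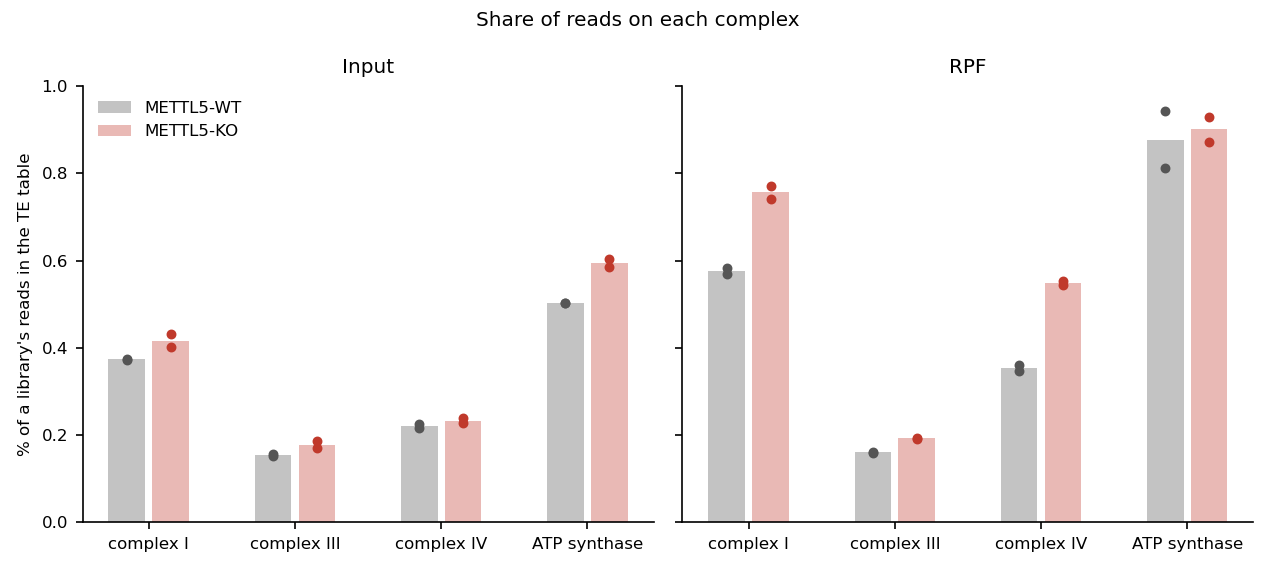
Share of each library's reads in the TE table (y axis, %) that fell on the subunit genes of each complex, in input (left) and RPF (right). Bars are means of 2 libraries and points the libraries, grey METTL5-WT and red METTL5-KO. The RPF bar of complex IV is 1.55 times as high in METTL5-KO as in METTL5-WT, and that of ATP synthase 1.03 times.

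Other genes of the pathway were read from lists of assembly factors, complex II, carriers, regulators and mitochondrially encoded subunits. Of 51 assembly factors, which insert cofactors and join subunits, 7 rose and 2 fell in RPF, where 16.2% of all genes were called higher and 13.1% lower. In TE 0 were called by limma or edgeR, with 5 higher and 2 lower at an unadjusted p-value under 0.05 in limma, beside 1394 and 1143 of all 11240 genes. Their median TE change was 0.22. The RPF rises included COX14 (0.82), COX10 (0.64), TMEM70 (0.56) and BCS1L (0.54), and the falls were PET117 (-1.51) and NDUFAF6 (-0.43). In complex II, SDHB, the iron-sulfur subunit, rose in input by 0.37 ± 0.12 (edgeR adjusted p = 0.0287) and in RPF by 0.88 ± 0.11 (limma adjusted p = 1.43e-05), and its TE change of 0.50 did not pass (limma adjusted p = 0.0672). NDUFAB1, the acyl carrier protein that binds NDUFA6, had an input change of -0.48 ± 0.11 (edgeR adjusted p = 0.00353) and a TE change of 0.67 ± 0.14 (limma adjusted p = 0.0133). CYCS, cytochrome c, rose in RPF by 0.32 ± 0.10 (limma adjusted p = 0.0246).

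Of 11 transcriptional regulators of respiration, 2 were called higher and 1 lower in input (22.4% of all genes), with a median of -0.035. In RPF limma called 2 higher and 1 lower (29.3% of all genes), and in TE 1 higher and 1 lower (4.79%). NRF1, GABPB1, PPARGC1B, YY1, TFB2M and POLRMT had no call in input, RPF or TE. PPARGC1A rose in input by 0.90 ± 0.13 and in RPF by 1.48 ± 0.16, and ESRRA rose in input by 0.86 ± 0.13. GABPA had an input change of -0.73 ± 0.15 (edgeR adjusted p = 0.00123). TFAM, which packages mitochondrial DNA, had a TE change of 0.68 ± 0.17, and PPRC1 one of -0.66 ± 0.17 (limma adjusted p = 0.0347 and 0.0345). Of the 13 mitochondrially encoded subunits, made by mitochondrial ribosomes, limma called 5 lower and 0 higher in RPF (MT-ND5, MT-ND6, MT-ND1, MT-ND4L and MT-CO3), with a median of -0.58, beside lower calls for 13.1% of all genes. At an unadjusted p-value under 0.05 limma had 7 lower and 1 higher, beside 2048 and 2449 of all 11240 genes. The edgeR test called 9 in either direction, beside 27.8% of all genes. Their median TE change was -0.14, and limma called 0 in TE. At an unadjusted p-value under 0.05 limma had 1 lower in TE, beside 1143 of all genes. In TE edgeR called 1, beside 6.81% of all genes. The difference between these subunits and the nuclear members was not tested.

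Limma called 16.2% of all genes higher and 13.1% lower in RPF, and 2.70% higher and 2.08% lower in TE. Among other nuclear gene families, 75 mitochondrial ribosomal proteins had 27 higher and 2 lower calls in RPF by limma. In TE they had 7 higher and 0 lower, with a median TE change of 0.27. The 75 cytosolic ribosomal proteins had 21 higher and 5 lower in RPF and 3 higher and 1 lower in TE, with a median TE change of -0.019. The respiratory chain and ATP synthase genes, at a median of 0.21, lay between these families. With the coding length trend removed, the medians were 0.19 for mitochondrial ribosomal proteins, 0.087 for the members and -0.11 for cytosolic ribosomal proteins. The differences between the 3 families were not tested.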

How the data were processed

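Input RNA and RPF libraries of METTL5-WT and METTL5-KO cells labelled HepG2 were grouped by their sample titles, with 2 replicates in each of 4 groups. For input, the authors ran STAR against hg38 and featureCounts on uniquely mapped reads, and deposited raw counts per gene. The table held 60718 genes after 3 broken lines were left out. For RPF, the authors selected footprint lengths, removed ribosomal RNA reads and used RiboToolkit. The TE table holds deposited signal values that the authors named RPKM, but dividing by 1 constant for each library gave whole reads (100% of values within 0.1 reads of a whole number), and the recovered input reads equalled the count table. The plan had assumed another unit, and the log-scale test was kept with count tests beside it. The authors' columns of TE fold change, p-value and adjusted p-value were not used.

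For input, the quasi-likelihood test of edgeR 4.0.16 was applied to the counts after TMM scaling, and filterByExpr kept 14054 genes. For RPF and TE, limma 3.58.1 with a variance trend was fitted to log2(value + 1) of all 8 libraries at once, keeping 11240 genes whose mean in input and in RPF reached 1. The genotype by library type interaction gave TE. Fold changes on this scale understate changes of low genes. P-values were two-sided and Benjamini-Hochberg adjusted over all genes tested. The edgeR and DESeq2 1.42.0 tests were also run on recovered reads, in R 4.3.3. Exonic length was the length column of the count table, and coding length and sequences came from GENCODE release 44. Scripts were tested on simulated data. Genes to describe were taken from the 3 largest called rises and falls per complex and measure whose groups did not overlap, the shortest and longest members, core subunits and isoform groups. Not every gene so picked is described, and other members named were chosen after their values were seen. The members and lists were chosen with earlier results of these data known. Same-numbered METTL5-WT and METTL5-KO replicates did not deviate together (Pearson r across genes 0.039 in input and -0.0021 in RPF). Input and RPF of the same lysate had Pearson r of -0.016 for METTL5-WT and 0.053 for METTL5-KO. The main fits had no block, and fits with a block on the lysate are given below.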

Additional observations from a re-analysis of the deposited data

How the results depend on the processing

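Of all genes, limma called 4.79% in TE in the main fit and 0.00890% without the variance trend. The share was 6.81% in edgeR, and 5.79%, 2.66% and 4.34% in limma with the exonic length, GC or coding length trend removed. The number of members called in TE was 9 and stayed between 9 and 13 under other pseudocounts, filters, median centring, quantile normalization, thinning of METTL5-KO RPF, edgeR, DESeq2 and removal of exonic length, GC or coding length trends. It was 0 without the variance trend, 14 in edgeR with a block on the lysate, and 1 to 8 when a replicate was left out, with 1 without METTL5-KO replicate 2. In RPF the 40 calls became 22 without the variance trend (20.4% of all genes) and 24 with the coding length trend removed (27.1%), and 28 to 32 when a replicate was left out (17.7% to 24.7% of all genes, against 29.3%). In input the 17 calls became 2 to 37 when a replicate was left out (8.10% to 37.4% of all genes, against 22.4%). Where this leaves a group with 1 library, that library is assumed to vary like the others. The median TE change of all members, 0.21, was 0.10 with quantile normalization and 0.087 with the coding length trend removed. With the coding length trend removed the medians were 0.036 in complex I, 0.17 in complex III, 0.11 in complex IV and 0.12 in ATP synthase. With quantile normalization complex I had 0.066, complex III 0.19 and ATP synthase 0.083, and with the GC trend removed ATP synthase had 0.12. Leaving out a replicate gave 0.11 to 0.20 in complex I, 0.18 to 0.37 in complex III, 0.28 to 0.35 in complex IV and 0.13 to 0.30 in ATP synthase. The cause of these differences was not tested. No member named in the text changed the sign of a called value under the alternatives run. With the replicate number as a block, 18 members were called in input (25.3% of all genes), 38 in RPF (29.5%) and 9 in TE (5.23%). With a replicate block on the lysate 12 were called in TE (7.06% of all genes). Those beyond the main calls were COX5A and ATP5MG, higher, and ATP5F1D, lower. With the exonic length trend removed as well, 13 were called (8.25%). The coding length trend, the edgeR lysate block and the joint limma and edgeR call were chosen after seeing the data. The METTL5-WT RPF libraries were the shallowest, and thinning METTL5-KO RPF left 9 members called in TE (4.08% of all genes).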
